A study of Mus musculus with 20 samples.

Results

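Neutrophils drawn from LPS-treated air pouches of Ager-/- mice were compared with those of wild-type (WT) mice, 3 libraries against 3 of the 20 libraries in the series, chosen by the genotype and tissue in the sample labels and described across all genes with enough counts. Of 54532 genes in the table, 11632 were tested. WT mice carried intact Ager, and Ager-/- mice, a line originally given by another laboratory, lacked it. The labels give the strain of all groups as C57BL/6 and give neither age nor sex. All neutrophil donors had air injected under the dorsal skin, then 1 μg of Escherichia coli O111:B4 LPS in carboxymethyl cellulose in the pouch, and cells were washed out after 4 h. By the study's account over 95% of them were neutrophils by Ly6G staining. Used beside them were 3 neutrophil libraries of Ager AHA/AHA mice, whose knock-in alleles replace basic residues in the heparan sulfate-binding site of RAGE, given the same LPS. Lung from 3 WT and 4 Ager-/- mice served as a further comparison, and the labels name no treatment for it.

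Ager encodes RAGE, the receptor for advanced glycation end products, a membrane receptor of the immunoglobulin superfamily that binds S100 proteins and HMGB1 and can activate NF-kB. It is abundant in lung epithelium and low in most other resting tissues. LPS acts through the receptor TLR4, and neutrophils that meet it transcribe chemokines, cytokines and feedback inhibitors of NF-kB. The comparison asks how the transcripts of recruited neutrophils differ when RAGE is absent.

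Total counts were 18226486 to 19584101 in WT and 17109497 to 22171253 in Ager-/- libraries. The scaling factors (TMM, the trimmed mean of M-values) did not overlap between the genotypes, at 0.789 to 0.990 in WT and 1.14 to 1.21 in Ager-/-. All levels below are CPM (counts scaled to a common library size after TMM), and each log2 fold change is Ager-/- minus WT from edgeR unless another comparison is named. With library totals in place of TMM the median log2 fold change of all genes moved from 0.01 to 0.40, so each direction below is relative to the typical gene of these libraries. The summed level of 20 neutrophil markers was 45025 to 62435 CPM in WT and 36928 to 37698 CPM in Ager-/-, without overlap. With library totals the median log2 fold change of these 20 markers moved from -0.45 to -0.04, so that gap depends on the scaling. Summed markers of T cells were 25.6 to 31.5 CPM in WT and 63.5 to 89.8 CPM in Ager-/-, and of NK cells 93.9 to 148 CPM and 192 to 311 CPM. In such bulk samples, fewer cells of a type and less RNA per cell cannot be told apart. Fibroblast markers summed to 231 CPM in WT replicate 2, 10.5 and 6.21 CPM in WT replicates 1 and 3 and 38.1 to 66.3 CPM in Ager-/-. None of the 4 tested had an adjusted p under 0.05. Without WT replicate 2, 3 of 4 did, all higher in Ager-/-. Replicates of a genotype differed by more than sampling noise, and as the labels number the libraries without saying what a number stands for, p-values measure the spread between these samples.

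Of the 11632 genes, 1240 (10.7%) were called, that is, had an adjusted p under 0.05, 774 of them higher (6.65%) and 466 lower (4.01%) in Ager-/-. Differentially expressed genes (DEGs), with a log2 fold change also beyond 1, numbered 650 (5.59%), 558 higher (4.8%) and 92 lower (0.791%). In 4146 genes (35.6%) the 3 Ager-/- libraries did not overlap the 3 WT libraries in CPM, which is the background for each such case below. With library totals the DEGs were 1599 higher and 37 lower, so the higher share went from 85.8% to 97.7%. Called genes at low levels were mostly higher and those at high levels mostly lower. Among the 3878 genes with a mean of up to 2.04 CPM, 284 were called higher and 24 lower, and among the 3877 genes above 11.6 CPM 154 were higher and 369 lower. Leaving out 1 library moved these counts. Without WT replicate 1 the DEGs fell to 119 higher and 39 lower, without WT replicate 3 to 292 higher, without Ager-/- replicate 1 to 359 higher, and without Ager-/- replicate 4 to 55 lower. Only 165 genes (1.42%) were called in the full fit and again without each of the 9 neutrophil libraries in turn, and the largest changes described first come from these.

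**Figure D1:**
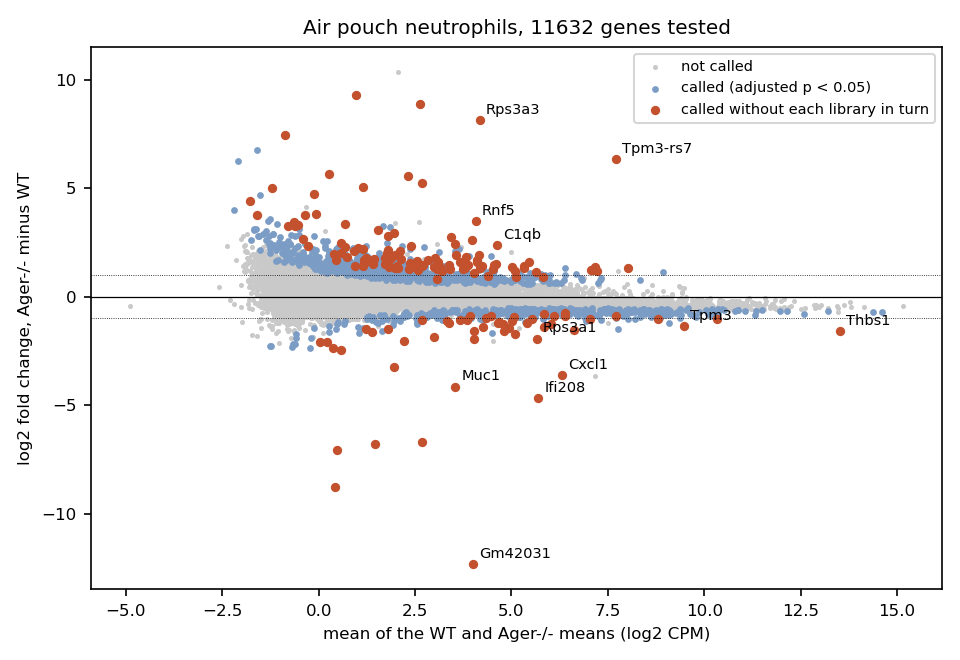
Log2 fold change (Ager-/- minus WT) against the mean level in log2 CPM for each of 11632 genes, with called genes in blue and the 165 called without each library in turn in red. The labelled copies Rps3a3 and Tpm3-rs7 lie among the highest red points of their level, and the lowest red point is Gm42031 at -12.35.

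Ager itself was near the lower limit of these libraries, at 2.40, 0.927 and 1.44 CPM in the WT and 3.78, 2.61 and 3.60 CPM in the Ager-/- libraries (log2 fold change 1.07, standard error 0.35, adjusted p = 0.0581). Every Ager-/- library was above every WT library, and the difference did not pass the threshold. In lung, Ager was at 2401 ± 430.3 CPM (SD, n = 3) in WT and 28 ± 2.06 CPM (n = 4) in Ager-/- (log2 fold change -6.42, adjusted p = 3.14e-11). The neutrophil libraries carry too few Ager reads for such a check.

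Genes on either side of Ager rose. Ager lies at chr17:34597862-34600936 (mm10, as all positions here), and Rnf5 (chr17:34601091-34603690), the next gene on the opposite strand, encodes a membrane-anchored ubiquitin ligase of the endoplasmic reticulum. Rnf5 stood at 3.43, 2.72 and 2.11 CPM in WT and 30.5, 29.3 and 32.7 CPM in Ager-/- libraries, with a wide gap between the groups (log2 fold change 3.49, standard error 0.21, adjusted p = 6.38e-09). Pbx2, a homeodomain transcription factor gene on the other side, was at 25.2, 20.6 and 25.6 CPM in WT and 40.4, 48.2 and 46.9 CPM in Ager-/- (log2 fold change 0.92, standard error 0.17, adjusted p = 0.00396). Agpat1, an enzyme gene of phosphatidic acid synthesis, was at 9.71, 9.76 and 11.4 CPM in WT against 20.5, 18.1 and 16.8 CPM in Ager-/- (log2 fold change 0.84, standard error 0.19, adjusted p = 0.0141), a call lost without WT replicate 1 at an adjusted p of 0.0676. Of 14 tested genes in the list of genes beside Ager these 3 were called, all higher (21.4%), and the median of the list was 0.02, or 0.44 with library totals, where 5 were called higher and 0 lower. Among the others, Gpsm3 (0.07, adjusted p = 0.815), whose end overlaps the start of Pbx2, Ppt2 (-0.52, adjusted p = 0.262) and Atf6b (-0.17, adjusted p = 0.526) were not called. In lung Rnf5, Pbx2 and Agpat1 had log2 fold changes of 1.72 (adjusted p = 8.29e-08), 0.73 (adjusted p = 0.000603) and 0.42 (adjusted p = 0.0341). The direct contrast with Ager AHA/AHA neutrophils gave 2.97 (adjusted p = 2.08e-08) for Rnf5 and 1.04 (adjusted p = 0.00293) for Pbx2. Agpat1 was not called there (0.83, adjusted p = 0.0658).

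Among the 10 largest increases that met the rule for named genes were 5 processed copies of genes that are themselves expressed here. A processed copy arises when a spliced transcript is reverse transcribed into another place in the genome, so it resembles the coding sequence of its parent without introns. Rps3a2, Rps3a3, Rps13-ps1 and Rps15a-ps7 are annotated as processed pseudogenes of small ribosomal subunit genes, and Tpm3-rs7 as a single-exon protein-coding gene related to Tpm3, a tropomyosin that binds actin. Aligned to the coding sequence of the parent, Tpm3-rs7 differed at 3 of 747 bases, Rps3a2 at 4 of 792, Rps3a3 at 9 of 795, Rps13-ps1 at 2 of 456 and Rps15a-ps7 at 4 of 392. The longest identical stretches were 620 bases in Tpm3-rs7 and 317 bases in Rps3a2. Reads from such stretches match parent and copy equally, and the sources used here do not state how the counting treated them, so levels of parent and copy are uncertain one by one. The stretches of 60 coding bases below, from GENCODE M21 on GRCm38 (the same assembly as mm10), show how little separates them, with every position that differs within the set in capitals.
Rps3a1, chr3:86141333-86141392, minus strand: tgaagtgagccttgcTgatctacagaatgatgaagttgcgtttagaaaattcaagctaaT
Rps3a3, chr13:108670803-108670862, plus strand: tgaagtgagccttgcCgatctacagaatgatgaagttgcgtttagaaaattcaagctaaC
Rps3a2, chr14:88123549-88123608, minus strand: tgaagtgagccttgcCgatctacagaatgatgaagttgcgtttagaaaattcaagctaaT
Tpm3, chr3:90079799-90079858, plus strand: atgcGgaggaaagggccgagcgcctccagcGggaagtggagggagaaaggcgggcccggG
Tpm3-rs7, chr14:113314743-113314802, plus strand: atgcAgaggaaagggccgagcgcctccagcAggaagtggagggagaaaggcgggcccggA

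Tpm3-rs7 was at 4.85, 5.68 and 4.38 CPM in WT and 434, 408 and 395 CPM in Ager-/- libraries (log2 fold change 6.37, standard error 0.21, adjusted p = 6.8e-13). Its parent Tpm3 moved the other way, from 1235, 968 and 874 CPM to 345, 415 and 433 CPM (log2 fold change -1.37, standard error 0.19, adjusted p = 0.000324). Summed per library the pair was lower by less than its error allowed to call (log2 fold change of the sum -0.35, SE 0.18, adjusted p = 0.196). The share of the sum assigned to the copy went from 0.392-0.584% in WT to 47.7-55.7% in Ager-/-. Rps3a3 stood at 0.194, 0.124 and 0.0555 CPM in WT and 53.8, 28.2 and 26 CPM in Ager-/- (log2 fold change 8.15, standard error 0.53, adjusted p = 3.22e-07). Rps3a2 gave 0.0647, 0.309 and 0.222 CPM in WT against 10.7, 11.1 and 7.71 CPM in Ager-/- (log2 fold change 5.57, standard error 0.38, adjusted p = 3.97e-08). Their parent Rps3a1 was at 88.5, 80.1 and 70.3 CPM in WT and 29.1, 17.3 and 16.1 CPM in Ager-/- (log2 fold change -1.93, standard error 0.21, adjusted p = 2.45e-05), again without overlap. The 2 copies held 0.292-0.537% of the family in WT libraries against 67.7-69.5% with Ager deleted and 0.0415-0.350% in the knock-in, and the summed family did not pass the test (log2 fold change of the sum -0.26, SE 0.21, adjusted p = 0.412).

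The Rps13 family showed a smaller share in its copy, 17.9-23% in Ager-/- against 0.378-0.558% in WT, and Rps13-ps1 went from 0.324, 0.309 and 0.333 CPM to 17.6, 9.56 and 10.1 CPM (log2 fold change 5.25, standard error 0.35, adjusted p = 2.83e-08). The parent Rps13 had a log2 fold change of -0.57 (adjusted p = 0.0617), and the sum was not called (log2 fold change of the sum -0.24, SE 0.20, adjusted p = 0.427). For Rps15a the copy held 3.22-7.60% in Ager-/-. With 2 counts of Rps15a-ps7 in all WT libraries and 174 in Ager-/-, the ratio was 62.4 (95% exact interval from counting alone 17 to 519), and here the summed family was higher (log2 fold change of the sum 0.76, SE 0.19, adjusted p = 0.0205). Rpl34 and Rpl34-ps1, of the large subunit, went in the opposite sense. Rpl34-ps1 fell from 14.7, 15.8 and 7.43 CPM to 0.262, 0.0435 and 0 CPM (log2 fold change -6.72, standard error 0.50, adjusted p = 2.01e-07) and Rpl34 rose from 26.5, 18.5 and 18.9 CPM in WT to 82.6, 57.7 and 56.8 CPM (log2 fold change 1.63, standard error 0.20, adjusted p = 9.13e-05). Against Ager AHA/AHA neutrophils neither was called, at -0.69 (adjusted p = 0.804) and 0.07 (adjusted p = 0.924), whereas Tpm3-rs7 (6.58, adjusted p = 2.16e-13) and Rps3a3 (8.76, adjusted p = 1.33e-07) were. In lung the values were 7.55 (adjusted p = 4.89e-15) for Tpm3-rs7, 8.77 (adjusted p = 1.25e-13) for Rps3a3, -1.04 (adjusted p = 4.22e-05) for Tpm3 and -2.60 (adjusted p = 1.56e-09) for Rps3a1.

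**Figure D2:**
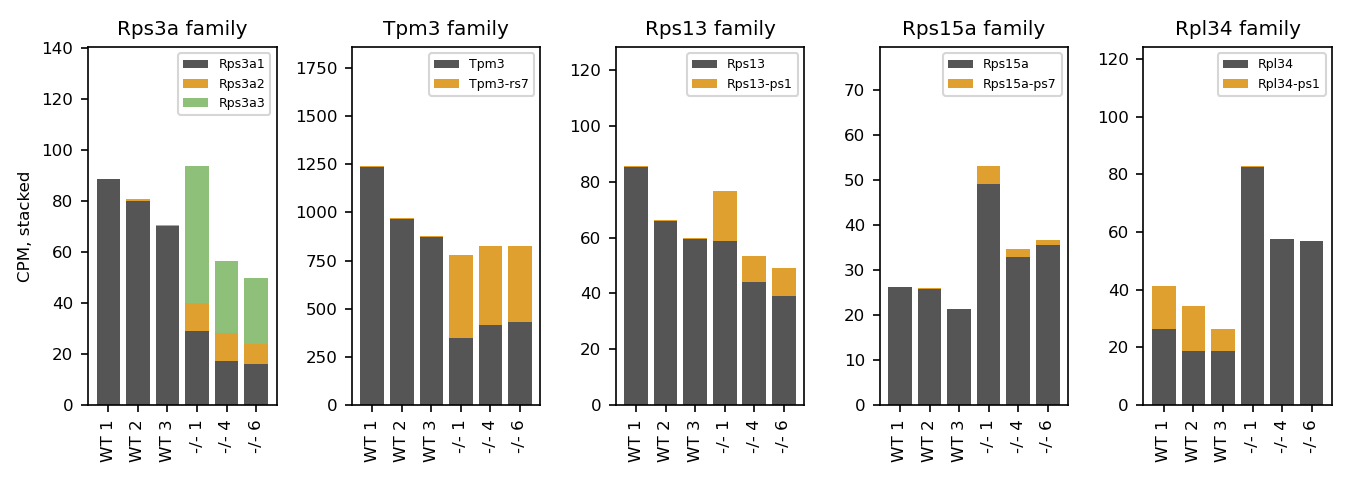
Stacked CPM of each parent gene (grey) and its copies (orange, green) in the 3 WT and 3 Ager-/- neutrophil libraries, numbered by replicate. The copies of Rps3a1 and Tpm3 take up 67.7-69.5% and 47.7-55.7% of their families in Ager-/- and under 1% in WT, and Rpl34-ps1 is seen in WT only at this scale.

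The other large increases were Gm42743, Gm8810, Gprc5b and Acp6. Gm42743, a long non-coding RNA gene at chr3:96269721-96279001, had no counts in WT and 265 counts in Ager-/- libraries, which is at least 63.4-fold higher against a floor of 3 counts over the group. Gm8810 (chr17:36066108-36067753), an unprocessed pseudogene, had 1 count in WT and 843 in Ager-/-, a ratio of 605 (exact interval 108 to 23900). Gprc5b, an orphan G protein-coupled receptor gene, was at 0.0647, 0.309 and 0 CPM in WT and 3.85, 2.35 and 6.84 CPM in Ager-/- (log2 fold change 5.09, standard error 0.69, adjusted p = 0.000491). Acp6, a lysophosphatidic acid phosphatase gene, was at 0.129, 0.309 and 0.388 CPM in WT against 2.92, 3.56 and 2.31 CPM in Ager-/- (log2 fold change 3.36, standard error 0.44, adjusted p = 0.000177). That no Ager-/- library overlapped a WT library in these genes was a condition of the rule that named them. In lung, Gprc5b was at 1.02 (adjusted p = 0.0051) and Acp6 at 0.13 (adjusted p = 0.723).

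The 10 largest decreases included Muc1 and Trim46, neighbours on chromosome 3 (chr3:89229057-89233381 and chr3:89234177-89246309). Muc1, a transmembrane mucin, was at 23.6, 25.2 and 17 CPM in WT and 1.12, 1.39 and 1.18 CPM in Ager-/- (log2 fold change -4.15, standard error 0.22, adjusted p = 2e-09). Trim46, a microtubule-associated tripartite motif protein known from neurons, was at 6.73, 8.03 and 6.38 CPM in WT against 0.860, 0.652 and 0.720 CPM in Ager-/- (log2 fold change -3.23, standard error 0.25, adjusted p = 2.61e-07). Thbs3, on the far side of Muc1 and chosen after its values were seen, had a log2 fold change of -2.07 (adjusted p = 0.00533). In lung the log2 fold changes were 0.34 (adjusted p = 0.222) for Muc1 and 0.63 (adjusted p = 0.159) for Trim46, neither called. Ifi208, of the interferon-inducible PYHIN family, was at 141, 94 and 62.4 CPM in WT and 1.61, 6.56 and 3.45 CPM in Ager-/- (log2 fold change -4.69, standard error 0.50, adjusted p = 0.00111). Its close paralogs leave the level uncertain. Gm42031 had 1555 counts in WT and none in Ager-/-, at least 722-fold lower, and had none in the Ager AHA/AHA libraries either. BC147527, with 133 counts and none, was at least 61.8-fold lower. Gm9574 (136 counts and 1, ratio 190, exact interval 33.5 to 7540) and Gm43305 (271 and 3, ratio 126, 42.6 to 614) followed. Gm13986, at -2.46 (adjusted p = 0.0019), completed the set. Of the 20 largest changes, 9 of 10 higher and 6 of 9 tested lower genes were called in the same direction in lung, where 3.1% of genes were called, 1.45% higher and 1.64% lower. From Ager AHA/AHA neutrophils, 10 of 10 and 7 of 10 differed, where 0.533% of all genes did. That contrast reuses the Ager-/- libraries by which the 20 were chosen, so these counts are no independent check.

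By position, 7.67% to 13.6% of tested genes were called on each nuclear chromosome, highest on chromosome 3 with 76 of 557. Within 5 Mb of Ager 23 of 161 genes were called (14.3%) and within 10 Mb 33 of 276 (12%), near the 10.7% of all genes. Genes called without each library in turn were 13 of those 161, against 1.42% overall. They held Rnf5 and Pbx2 and, chosen after their values were seen, the class II antigen presentation genes H2-Aa (1.26, adjusted p = 0.00142), H2-Ab1 (1.20, adjusted p = 0.0012), H2-Eb1 (1.22, adjusted p = 0.0019) and H2-DMb1 (1.83, adjusted p = 0.0012), and Gm8909 (3.81, adjusted p = 0.00142) and Gm10499 (2.47, adjusted p = 0.00452) beside Gm8810 and Gm9574 near 36.1 Mb. Summed dendritic cell markers were 104 to 170 CPM in WT and 181 to 285 CPM in Ager-/-, and 2 of the 9 were under 1 CPM in all 6 libraries. Class II genes also belong to such cells, and their part in the result was not tested. Among 377 windows of 5 Mb with at least 10 tested genes, the median share called was 10%. The 5 windows above 35% began at 50 Mb of chromosome 19 (6 of 11), 115 Mb of chromosome 7 (10 of 22), 65 Mb of chromosome 17 (5 of 12), 105 Mb of chromosome 1 (6 of 15) and 125 Mb of chromosome 3 (7 of 18). The window at 115 Mb of chromosome 7 holds Gprc5b, Rps13 and Rps15a, and also Pik3c2a (-1.45, adjusted p = 0.0012) and Nucb2 (-1.64, adjusted p = 0.00603), both chosen after their values were seen. The window at 85 Mb of chromosome 3, with Rps3a1, Muc1 and Trim46, had 15 of 68 called (22.1%).

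Cxcl1 was the chemokine that differed most. It encodes a ligand of the receptor CXCR2 that draws neutrophils, and it fell from 161, 159 and 117 CPM in WT to 8.82, 8.95 and 18.1 CPM in Ager-/- (log2 fold change -3.61, standard error 0.27, adjusted p = 2.2e-07). Its call was kept without each library in turn, which the rule for the 10 largest decreases required. Cxcl2 and Cxcl3, its neighbours on chromosome 5 with the same receptor, showed smaller differences or none that passed. Cxcl2 was at 17048, 16363 and 12406 CPM in WT against 12074, 12802 and 13579 CPM in Ager-/- and was not called (log2 fold change -0.25, standard error 0.20, adjusted p = 0.394). Cxcl3 was at 6439, 4310.2 and 4049 CPM in WT against 3379, 2659 and 3272 CPM in Ager-/- (log2 fold change -0.67, standard error 0.21, adjusted p = 0.0473), a call lost without WT replicates 1 or 2, Ager AHA/AHA replicates 4 or 6 or Ager-/- replicates 4 or 6 at an adjusted p from 0.0558 to 0.281. Cxcl16, a membrane-bound ligand of CXCR6, rose from 10.4, 12.5 and 16.8 CPM in WT to 38, 22.1 and 37 CPM (log2 fold change 1.29, standard error 0.24, adjusted p = 0.00496). Of 11 CXC chemokines tested, 2 were lower and 1 higher (27.3% called, against 10.7% of all genes), with a median of -0.15 against 0.01 for all genes. With library totals 1 was lower and 1 higher, with a median of 0.24. Of 12 CC chemokines, Ccl5 (0.79, adjusted p = 0.0234) and Ccl9 (0.76, adjusted p = 0.0417) were called higher (16.7%). The call of Ccl5 was lost without WT replicates 1 or 3 at an adjusted p from 0.086 to 0.0994. That of Ccl9 was lost without WT replicates 1 or 3, Ager AHA/AHA replicate 6 or Ager-/- replicates 1 or 6 at an adjusted p from 0.0559 to 0.141.

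Of 26 genes listed as LPS-induced cytokines, 5 were lower and 4 higher (34.6% called, against 10.7% of all genes). The list was chosen with earlier results of these data known, so its share is no independent result. It also holds the matrix protein Thbs1 and the activin inhibitor Fst, both among the lower calls. Its median of -0.31 became 0.09 with library totals, where 7 were called higher and 3 lower. Thbs1, thrombospondin 1, a matrix glycoprotein, was at 16391, 16969.7 and 19069 CPM in WT and 4809, 6153 and 6536 CPM in Ager-/- (log2 fold change -1.58, standard error 0.25, adjusted p = 0.00136), and no library of one group reached the other. Fst, follistatin, an inhibitor of activins, was at 5.18, 5.44 and 4.77 CPM in WT against 2.13, 1.56 and 1.85 CPM in Ager-/- (log2 fold change -1.47, standard error 0.25, adjusted p = 0.00238). Prok2, prokineticin 2, a chemoattractant secreted by neutrophils, was at 58.5, 45.9 and 74.1 CPM in WT against 34, 18.9 and 24 CPM in Ager-/- (log2 fold change -1.21, standard error 0.22, adjusted p = 0.00375). Lif, a cytokine of the interleukin 6 family, rose from 5.05, 4.70 and 2.88 CPM in WT to 18.4, 9.99 and 10.4 CPM (log2 fold change 1.63, standard error 0.28, adjusted p = 0.00269). These 4 were called without each library in turn. Csf3, G-CSF, which drives neutrophil production, was at 368, 341 and 341 CPM in WT against 213, 142 and 158 CPM in Ager-/- (-1.03, adjusted p = 0.017). Il1rn, the interleukin 1 receptor antagonist, was at 33632, 25585 and 20379.6 CPM in WT against 19478, 14690.0 and 14993 CPM in Ager-/- (-0.70, adjusted p = 0.0461). The first call was lost without WT replicate 1 or Ager-/- replicates 4 or 6 at an adjusted p from 0.0674 to 0.0996. The second was lost without WT replicates 1 or 2, Ager AHA/AHA replicates 4 or 6 or Ager-/- replicates 4 or 6 at an adjusted p from 0.0602 to 0.26. Both were also lost with library totals. Subunits of interleukin 12 and interleukin 27 and GM-CSF were the other 3 called higher. Il12b was at 1.04, 1.30 and 1.05 CPM in WT against 4.37, 3.17 and 2.31 CPM in Ager-/- (1.55, adjusted p = 0.0288), lost without WT replicates 1, 2 or 3 or Ager-/- replicates 1 or 4 at an adjusted p from 0.0504 to 0.118. Il27 was at 19.7, 27.7 and 15.3 CPM in WT against 30.4, 36.2 and 41.4 CPM in Ager-/- (0.79, adjusted p = 0.0347), lost without WT replicates 1 or 3 or Ager-/- replicates 4 or 6 at an adjusted p from 0.0682 to 0.13. Csf2 was near the lower limit, at 0.324, 0.124 and 0 CPM in WT against 2.24, 0.435 and 0.514 CPM in Ager-/- (2.87, adjusted p = 0.0372), lost without WT replicates 1, 2 or 3 or Ager-/- replicate 1 at an adjusted p from 0.0711 to 0.219. Against Ager AHA/AHA neutrophils Cxcl1 was called (-2.94, adjusted p = 1.95e-06), while Thbs1 (-0.77, adjusted p = 0.287), Fst (-0.04, adjusted p = 0.97) and Lif (0.44, adjusted p = 0.63) were not. The main inflammatory cytokines were not called, with Il1b at -0.46 (adjusted p = 0.143), Tnf at 0.54 (adjusted p = 0.186) and Il6 at 0.55 (adjusted p = 0.178).

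**Figure D3:**
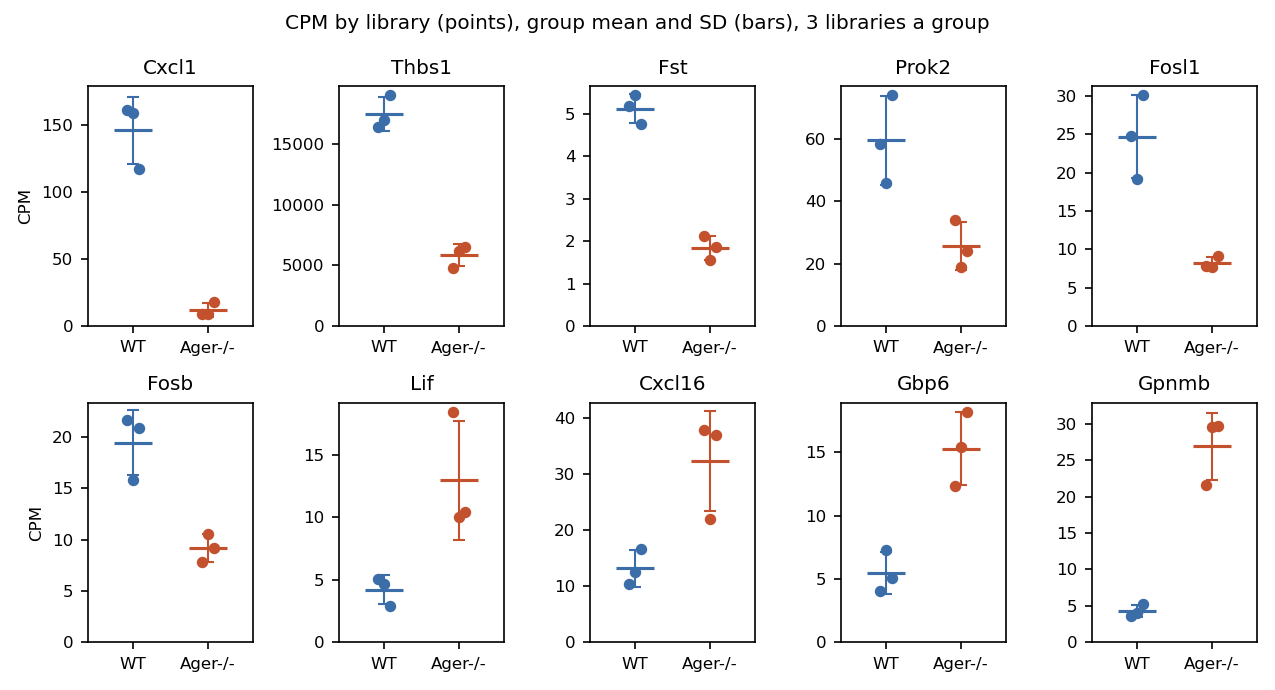
CPM of 10 named genes in each WT (blue) and Ager-/- (red) library, with horizontal bars at the group mean and vertical bars for 1 SD (3 libraries a group). Cxcl1, Thbs1, Fst, Prok2, Fosl1 and Fosb are lower and Lif, Cxcl16, Gbp6 and Gpnmb higher in every Ager-/- library than in any WT library.

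The promoter sequences of 4 called cytokine genes are shown because NF-kB and AP-1 are the factors that LPS activates at such genes. Each is the 250 bases before the annotated start from RefSeq (GRCm38.p6), for the 4 smallest p among called genes with a single entry. They came from 14 called genes of the cytokine and chemokine lists, 8 of which had an entry. Capitals mark matches on either strand to an NF-kB motif, the letters GGG followed by any 2 bases and TTTCC, or to an AP-1 motif, TGANTCA, and the motifs share no position in these windows. Of all 32851 promoters in the table, 1.41% held the first and 6.75% the second.
Cxcl1, chr5:90890995-90891244, plus strand: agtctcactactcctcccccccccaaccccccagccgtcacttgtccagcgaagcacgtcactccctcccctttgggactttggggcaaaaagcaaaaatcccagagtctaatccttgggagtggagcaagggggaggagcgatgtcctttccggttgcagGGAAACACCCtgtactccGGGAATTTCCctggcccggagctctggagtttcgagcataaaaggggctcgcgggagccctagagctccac
Lif, chr11:4257318-4257567, plus strand: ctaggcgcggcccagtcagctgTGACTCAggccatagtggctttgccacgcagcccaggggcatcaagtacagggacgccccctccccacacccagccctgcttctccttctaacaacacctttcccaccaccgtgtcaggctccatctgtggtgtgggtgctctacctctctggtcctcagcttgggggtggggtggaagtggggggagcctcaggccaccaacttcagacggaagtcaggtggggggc
Prok2, chr6:99726393-99726642, minus strand: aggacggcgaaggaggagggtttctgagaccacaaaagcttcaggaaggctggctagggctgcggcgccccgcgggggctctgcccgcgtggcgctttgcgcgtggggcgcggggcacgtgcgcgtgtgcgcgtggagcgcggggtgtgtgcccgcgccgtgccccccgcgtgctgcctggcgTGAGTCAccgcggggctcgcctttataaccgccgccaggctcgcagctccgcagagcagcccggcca
Il12b, chr11:44399813-44400062, plus strand: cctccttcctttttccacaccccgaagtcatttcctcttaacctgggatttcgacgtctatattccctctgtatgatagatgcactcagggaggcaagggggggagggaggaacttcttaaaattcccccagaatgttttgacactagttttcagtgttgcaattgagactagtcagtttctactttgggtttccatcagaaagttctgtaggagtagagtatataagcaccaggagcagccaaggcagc
The window of Cxcl1 holds 2 matches to the NF-kB motif, and those of Lif and Prok2 hold 1 match each to the AP-1 motif. Il12b has neither set of letters in this window.

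In the list of the TLR and NF-kB pathway the calls went 1 way. Of 38 tested, 33 had a negative log2 fold change and 7 were called, all lower (18.4%), with a list median of -0.39. Of all genes 10.7% were called and 4.01% called lower. Tlr4, the LPS receptor itself, was at 386, 299 and 323 CPM in WT and 202, 220.1 and 239 CPM in Ager-/- (-0.61, adjusted p = 0.0394). Nfkb1, which encodes the p105 precursor of the p50 subunit, was at 1876, 1626 and 1526 CPM in WT against 984, 1001 and 889 CPM in Ager-/- (log2 fold change -0.81, standard error 0.18, adjusted p = 0.0128). Irak3, a feedback inhibitor of TLR signalling, was at 359, 289 and 301 CPM in WT against 203, 191 and 156 CPM in Ager-/- (log2 fold change -0.79, standard error 0.18, adjusted p = 0.0127). Tnip1 (-0.63, adjusted p = 0.0271), a partner of the inhibitor A20, the subunits Relb (-0.60, adjusted p = 0.037) and Rel (-0.57, adjusted p = 0.04) and the inhibitor Nfkbie (-0.55, adjusted p = 0.0443) were the others. Nfkbia, the classical inhibitor, was at -0.48 (adjusted p = 0.118) and not called. With library totals the list median was 0.01 and 1 member was called lower and 1 higher, so the direction rests on the scaling. Members called lower were 0 without WT replicate 1 or Ager-/- replicates 4 or 6, 3 without Ager AHA/AHA replicate 6 and 4 without WT replicates 2 or 3 or Ager AHA/AHA replicate 4. The call of Irak3 was lost without WT replicate 1 or Ager-/- replicates 4 or 6 at an adjusted p from 0.0508 to 0.0897 and that of Nfkb1 lost without WT replicate 1 or Ager-/- replicates 4 or 6 at an adjusted p from 0.0515 to 0.0845. That of Tlr4 was lost without WT replicates 1 or 3, Ager AHA/AHA replicate 6 or Ager-/- replicates 1, 4 or 6 at an adjusted p from 0.0547 to 0.19. That of Tnip1 was lost without WT replicate 1 or Ager-/- replicates 4 or 6 at an adjusted p from 0.088 to 0.14. Those of the subunits Relb and Rel were lost without WT replicates 1 or 2, Ager AHA/AHA replicates 4 or 6 or Ager-/- replicates 4 or 6 at an adjusted p from 0.0505 to 0.2 and lost without WT replicates 1, 2 or 3, Ager AHA/AHA replicates 4 or 6 or Ager-/- replicates 1, 4 or 6 at an adjusted p from 0.05 to 0.131. That of Nfkbie was lost without WT replicates 1, 2 or 3, Ager AHA/AHA replicates 4 or 6 or Ager-/- replicates 1, 4 or 6 at an adjusted p from 0.0557 to 0.153.

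Immediate early genes, which cells transcribe within minutes of a stimulus, held more calls. Of 32 tested, 8 were lower and 2 higher (31.2% called), and the median was -0.39, or 0.03 with library totals, where 3 were lower and 5 higher. The Fos family led. Fosl1 was at 24.9, 19.2 and 30.1 CPM in WT and 7.78, 7.65 and 9.10 CPM in Ager-/- (log2 fold change -1.60, standard error 0.20, adjusted p = 9.64e-05), and it also differed from Ager AHA/AHA (-1.23, adjusted p = 0.00244). Fosb was at 21.6, 15.8 and 20.9 CPM in WT against 7.85, 10.5 and 9.15 CPM in Ager-/- (log2 fold change -1.09, standard error 0.20, adjusted p = 0.00347). Both were called without each library in turn. Fos was at 181, 145 and 150.5 CPM in WT against 59.1, 90.8 and 94 CPM in Ager-/- (log2 fold change -0.97, standard error 0.21, adjusted p = 0.0112), lost without WT replicate 1 at an adjusted p of 0.0776. Their partners of the Jun family were not called, with Jun at 0.27 (adjusted p = 0.314) and Junb at -0.54 (adjusted p = 0.0766). Klf2 (-1.03, adjusted p = 0.0244), a transcription factor that restrains myeloid activation, and Dusp1 (-0.66, adjusted p = 0.0324), a phosphatase that switches off MAP kinases, were lower. The call of Klf2 was lost without WT replicate 1 or Ager-/- replicates 4 or 6 at an adjusted p from 0.088 to 0.173. That of Dusp1 was lost without WT replicates 1 or 2 or Ager-/- replicates 1, 4 or 6 at an adjusted p from 0.0599 to 0.159. Rgs1, a regulator of G protein signals from chemokine receptors, was higher, at 15.7, 24.3 and 15.1 CPM in WT against 63, 42.5 and 34 CPM in Ager-/- (log2 fold change 1.34, standard error 0.26, adjusted p = 0.00617), lost without WT replicate 1 at an adjusted p of 0.0515. Members called lower were 2 without WT replicate 1, 3 without Ager-/- replicates 4 or 6 and 5 without WT replicate 2.

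**Figure D4:**
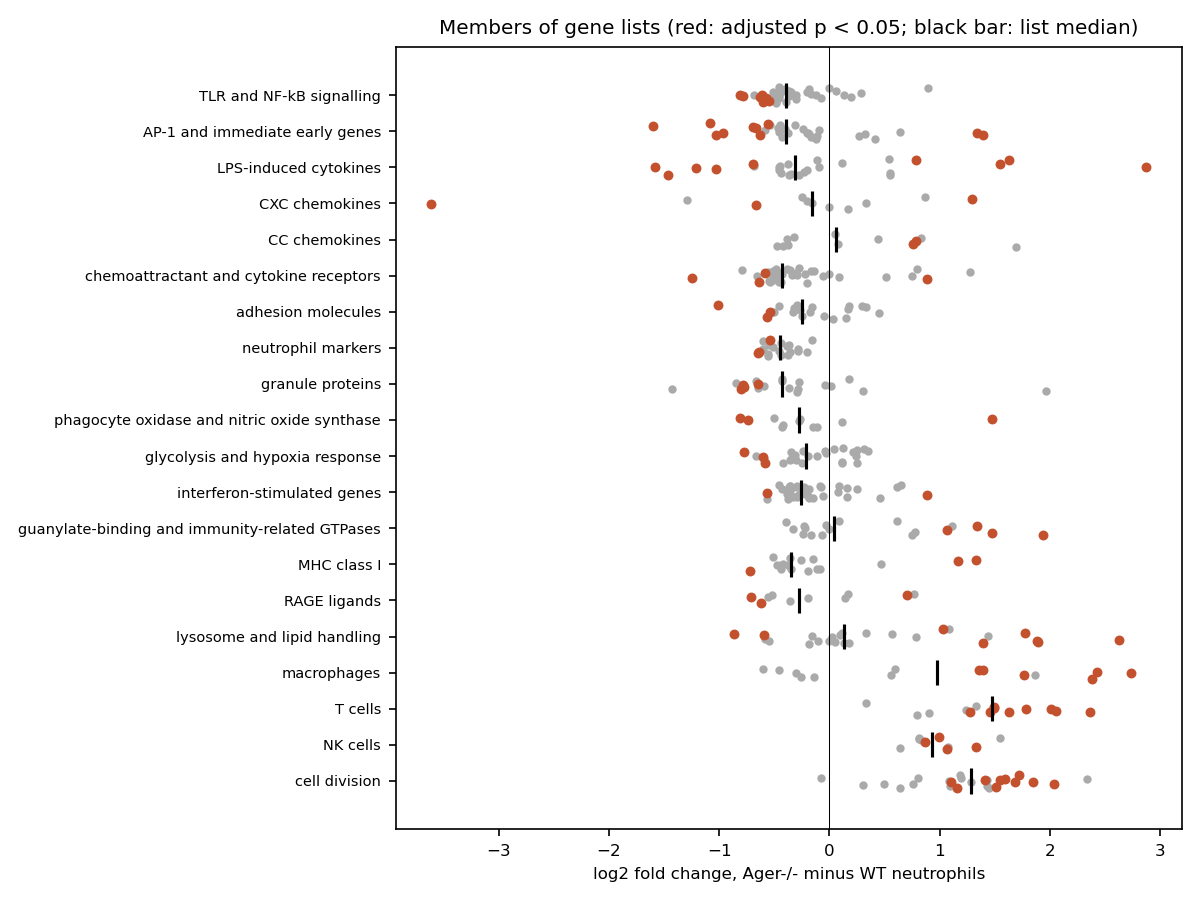
Log2 fold change (Ager-/- minus WT) of every tested member of 20 gene lists, red where the adjusted p was under 0.05, with a black bar at the list median. Members of the TLR, receptor, neutrophil and granule lists sit mostly left of 0 with medians from -0.45 to -0.39, while markers of T cells and genes of cell division sit to the right with medians of 1.48 and 1.28; with library totals the medians of the first 4 lists were between -0.04 and 0.01.

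Of transcripts that mark the neutrophil itself, 3 of 20 were called lower (15%), and none with library totals. All 20 neutrophil markers had a negative log2 fold change, with a median of -0.45, or -0.04 with library totals. The 3 were Mmp9, the gelatinase of tertiary granules (-0.65, adjusted p = 0.0328), Hdc, which makes histamine (-0.64, adjusted p = 0.036), and Itgam, the CD11b chain of the integrin Mac-1 (-0.54, adjusted p = 0.0444). Itgam was at 297, 241 and 243 CPM in WT and 192, 171 and 172 CPM in Ager-/-. The call of Mmp9 was lost without WT replicates 1 or 3 or Ager-/- replicates 1, 4 or 6 at an adjusted p from 0.07 to 0.124. That of Hdc was lost without WT replicates 1 or 2 or Ager-/- replicates 1, 4 or 6 at an adjusted p from 0.0592 to 0.187. That of Itgam was lost without WT replicates 1, 2 or 3, Ager AHA/AHA replicates 4 or 6 or Ager-/- replicates 4 or 6 at an adjusted p from 0.0605 to 0.215. Ptprc, which encodes CD45, was at 1573, 1690.4 and 1541 CPM in WT and 971, 1571 and 1485 CPM in Ager-/-, with Ager-/- replicate 1 below all others, and was not called (log2 fold change -0.25, standard error 0.19, adjusted p = 0.384, or 0.13 with library totals). Ly6c2 was at 119.8, 119 and 72.1 CPM in WT against 80.0, 63.1 and 81.5 CPM in Ager-/- (log2 fold change -0.47, standard error 0.23, adjusted p = 0.173), and Ly6c1 was under 1 CPM in every library. Ly6g, the antigen used to count neutrophils, was at -0.61 (adjusted p = 0.0861). Ly6 genes are close paralogs, and their separate levels are uncertain.

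Of 20 tested granule protein genes 4 were called, all lower (20%, against 10.7% of all genes). Among them were Lcn2, the siderophore-binding protein lipocalin 2 (-0.78, adjusted p = 0.038), Slpi, a protease inhibitor (-0.78, adjusted p = 0.0324), and Orm1 (-0.80, adjusted p = 0.0302). In the list of the phagocyte oxidase and nitric oxide synthase (3 of 11 called, 27.3%), Rac2, a GTPase that activates the oxidase (-0.74, adjusted p = 0.0294), and Nos2, inducible nitric oxide synthase (-0.81, adjusted p = 0.0251), were lower and the proton channel Hvcn1 higher (1.48, adjusted p = 0.036), while the catalytic subunit Cybb (-0.15, adjusted p = 0.67) and Ncf1 (-0.27, adjusted p = 0.331) were not called. Of 28 glycolysis and hypoxia genes 3 were called (10.7%), the same share as of all genes, so the list as a whole did not stand out. They were Pfkfb3 (-0.78, adjusted p = 0.0128), Hk2 (-0.60, adjusted p = 0.036) and Hif1a (-0.59, adjusted p = 0.0315), all lower. Of 37 receptors 4 were called (10.8%), also near the share of all genes. Cxcr1 (-1.25, adjusted p = 0.011), Csf2rb2 (-0.64, adjusted p = 0.0249) and Ifnar1 (-0.58, adjusted p = 0.0297) were lower and Ccr7 higher (0.89, adjusted p = 0.0421), and Cxcr2 was not called (-0.20, adjusted p = 0.551). The receptor count depends on the test, as with DESeq2 12 of the 37 were called lower and 2 higher. DESeq2 called 867 of all genes lower and 889 higher. Pecam1, an adhesion molecule of leukocytes and endothelium, was at 80.4, 77.1 and 67.3 CPM in WT and 42.4, 35.2 and 34.2 CPM in Ager-/- (log2 fold change -1.01, standard error 0.20, adjusted p = 0.00742). That call was lost without WT replicate 1 at an adjusted p of 0.0601. Summed endothelial markers were 69.1 to 83.3 CPM in WT and 40.2 to 47.3 CPM in Ager-/-. Pecam1 made up most of this sum in every library, so the sum mostly repeats Pecam1, the only one called of the 2 tested. Of these 6 markers 4 were under 1 CPM in all 6 libraries, 2 of them at 0, and the part of endothelial cells in the result was not tested. Without WT replicate 1, all the other calls in this paragraph were lost (adjusted p from 0.0718 to 0.217). Without WT replicate 2, the calls of Lcn2, Orm1, Rac2, Nos2, Hvcn1, Hk2 and Hif1a were lost (adjusted p from 0.0536 to 0.112). Without WT replicate 3, the calls of Slpi, Hvcn1, Ifnar1 and Ccr7 were lost (adjusted p from 0.0547 to 0.124). Without Ager AHA/AHA replicate 4, the call of Lcn2 was lost (adjusted p = 0.0571). Without Ager AHA/AHA replicate 6, the calls of Lcn2, Hk2 and Ccr7 were lost (adjusted p from 0.0528 to 0.0547). Without Ager-/- replicate 1, the calls of Hvcn1, Hif1a and Ccr7 were lost (adjusted p from 0.0559 to 0.134). Without Ager-/- replicate 4, all the other calls in this paragraph were lost (adjusted p from 0.0534 to 0.169). Without Ager-/- replicate 6, all of these but Hvcn1, Cxcr1 and Ccr7 were lost (adjusted p from 0.0636 to 0.175). With library totals the lower calls were lost too, except that of Pecam1, and those called higher were 2 granule protein genes and 4 receptors.

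Ligands of RAGE were measured with it. S100a9 was at 17649.8, 12459 and 12505 CPM in WT and 12305, 10417 and 10570.5 CPM in Ager-/- (log2 fold change -0.36, standard error 0.20, adjusted p = 0.243), and S100a8, with which it forms calprotectin, was at 8799.8, 6592 and 5538 CPM in WT against 4592, 5054 and 4609 CPM in Ager-/- (log2 fold change -0.55, standard error 0.22, adjusted p = 0.0955). Every Ager-/- library lay below every WT library in both, neither passed the test, and with library totals S100a9 was at 0.06 on the log2 scale. S100a11 was called lower, at 1497, 1010.5 and 945 CPM in WT against 812, 647 and 645 CPM in Ager-/- (log2 fold change -0.71, standard error 0.21, adjusted p = 0.0376), as was App (-0.62, adjusted p = 0.0325), and S100a10 was called higher (0.70, adjusted p = 0.0442). The call of S100a11 was lost without WT replicate 1, Ager AHA/AHA replicate 4 or Ager-/- replicates 4 or 6 at an adjusted p from 0.0529 to 0.241. That of App was lost without WT replicates 1 or 2 or Ager-/- replicates 1, 4 or 6 at an adjusted p from 0.0563 to 0.158. Both calls were also lost with library totals. That of S100a10 was lost without WT replicates 1, 2 or 3, Ager AHA/AHA replicate 6 or Ager-/- replicates 1 or 6 at an adjusted p from 0.0614 to 0.159. Hmgb1 (0.17, adjusted p = 0.548), S100a6 (-0.52, adjusted p = 0.124) and S100a13 (0.14, adjusted p = 0.723) were not called, and S100b was without a count in all 6 libraries. Of 10 ligands tested 3 were called (30%), with a median of -0.28, or 0.14 with library totals, where 2 were called higher and 0 lower.

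Few interferon-stimulated genes were called. Of 39 tested, 2 were called (5.13%, against 10.7% of all genes), Mx1 higher (0.89, adjusted p = 0.0328) and Irf9 lower (-0.56, adjusted p = 0.0495), and the list median was -0.25, or 0.13 with library totals, where 5 were called higher and 0 lower. The call of Mx1 was lost without WT replicates 1 or 3 or Ager-/- replicates 4 or 6 at an adjusted p from 0.0687 to 0.143. That of Irf9 was lost without WT replicates 1, 2 or 3, Ager AHA/AHA replicates 4 or 6 or Ager-/- replicates 1, 4 or 6 at an adjusted p from 0.0603 to 0.209. Isg15 (-0.36, adjusted p = 0.269), Rsad2 (-0.36, adjusted p = 0.244) and Irf7 (-0.28, adjusted p = 0.363) were not called. Guanylate-binding proteins and immunity-related GTPases, which attack vacuoles of intracellular microbes, had 4 of 18 called, all higher (22.2%), with a median of 0.04, or 0.44 with library totals. Iigp1 was at 4.27, 6.36 and 3.99 CPM in WT and 17.5, 20.2 and 18.3 CPM in Ager-/- (log2 fold change 1.94, standard error 0.30, adjusted p = 0.00142). Gbp6 was at 4.08, 7.29 and 5.05 CPM in WT against 12.3, 15.4 and 18.2 CPM in Ager-/- (log2 fold change 1.48, standard error 0.23, adjusted p = 0.00131). Gbp8 was at 1.34 (adjusted p = 0.00336) and Gbp4 at 1.07 (adjusted p = 0.0101), the last lost without WT replicate 1 at an adjusted p of 0.0696. Members on chromosome 3 were not called, with Gbp5 at -0.07 (adjusted p = 0.856) and Gbp2b at 2817, 2935 and 2035 CPM in WT and 1760.4, 2374 and 2493 CPM in Ager-/- (-0.23, adjusted p = 0.497, or 0.17 with library totals). The 2 interferon-inducible genes Ifi44 (0.62, adjusted p = 0.0635) and Ifi44l (0.65, adjusted p = 0.0507) were not called against WT. Against Ager AHA/AHA, Ifi44 was higher (3.37, adjusted p = 2.83e-08), as were Gbp2b and Ifi44l, which had 0, 4 and 1 and 0, 0 and 0 counts in the Ager AHA/AHA libraries (adjusted p = 9.12e-14 and 1.68e-10). Of 17 MHC class I genes 3 were called (17.6%), with a median of -0.35, and with library totals 3 were called higher and 0 lower. H2-M3 was lower (-0.72, adjusted p = 0.0203, lost without WT replicates 1 or 2 or Ager-/- replicate 4 at an adjusted p from 0.0534 to 0.0836 and with library totals). H2-Q7 was higher at 138, 168 and 138 CPM in WT against 322, 291 and 500.0 CPM in Ager-/- (log2 fold change 1.33, standard error 0.21, adjusted p = 0.0012), as was H2-Q6 (1.16, adjusted p = 0.00988, lost without WT replicate 1 at an adjusted p of 0.0639). H2-Q6 and H2-Q7 are near-identical and cannot be counted apart with certainty.

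Several smaller lists held 2 or 3 calls each, at shares from 8% to 15.4%, against 10.7% of all genes. Among the adhesion molecules 3 of 21 were called (14.3%), all lower, with Itga5, the alpha chain of a fibronectin receptor, at 110.4, 104 and 123 CPM in WT and 78.3, 70.3 and 79.3 CPM in Ager-/- (log2 fold change -0.57, standard error 0.16, adjusted p = 0.0369), a call lost without WT replicates 1 or 3, Ager AHA/AHA replicate 6 or Ager-/- replicates 4 or 6 at an adjusted p from 0.0525 to 0.15 and with library totals. Among survival and apoptosis genes 2 of 25 were called (8%). Bcl2, which blocks apoptosis, was at 1.17, 1.30 and 0.943 CPM in WT against 1.79, 4.30 and 2.16 CPM in Ager-/- (1.28, adjusted p = 0.05 as rounded, lost without WT replicates 1, 2 or 3, Ager AHA/AHA replicate 2 or Ager-/- replicate 4 at an adjusted p from 0.0505 to 0.207). Bcl2l11, the pro-apoptotic protein Bim, was at 688, 593 and 674 CPM in WT against 448, 433 and 405 CPM in Ager-/- (-0.60, adjusted p = 0.0299, lost without WT replicates 1 or 3 or Ager-/- replicates 4 or 6 at an adjusted p from 0.069 to 0.132 and with library totals). The PYHIN family, which senses DNA, had Ifi214 higher beside the lower Ifi208, at 1.62, 4.20 and 2.66 CPM in WT and 4.90, 6.56 and 5.60 CPM in Ager-/- (1.00, adjusted p = 0.0386, lost without WT replicates 1 or 3 or Ager-/- replicates 4 or 6 at an adjusted p from 0.0603 to 0.158), 2 of 13 called (15.4%). In the circadian clock 2 of 13 were higher (15.4%). Rora, an activator of the clock, was at 1.10, 1.54 and 1.94 CPM in WT against 8.34, 4.35 and 2.67 CPM in Ager-/- (1.74, adjusted p = 0.021, lost without WT replicate 1 or Ager-/- replicate 1 at an adjusted p from 0.0624 to 0.113). Nr1d2, a repressor, was at 0.518, 0.803 and 0.444 CPM in WT against 1.38, 1.96 and 1.80 CPM in Ager-/- (1.53, adjusted p = 0.0248, lost without WT replicates 1 or 3 or Ager-/- replicate 4 at an adjusted p from 0.0622 to 0.0994). Under library totals the calls were 2 higher and 1 lower among adhesion molecules, 3 higher and 0 lower among survival genes and 5 higher and 1 lower in the PYHIN family.

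Among markers of other leukocytes, the calls were all higher and lay in the lists of T cells, NK cells, macrophages, dendritic cells and eosinophils. Of 14 T cell genes 9 were called, all higher (64.3%), with a median of 1.48, 1.86 with library totals. Lck, a kinase of the T cell receptor, was at 2.78, 3.83 and 3.72 CPM in WT and 9.35, 11.3 and 7.87 CPM in Ager-/- (log2 fold change 1.46, standard error 0.25, adjusted p = 0.00208). Cd2, an adhesion receptor of these cells, was at 1.75, 1.42 and 1.94 CPM in WT against 14.8, 5.91 and 5.50 CPM in Ager-/- (log2 fold change 2.36, standard error 0.41, adjusted p = 0.00375). Of 10 NK cell genes 5 were higher, such as Il2rb at 15.3, 26.3 and 26.7 CPM in WT against 56, 68.6 and 46.7 CPM in Ager-/- (log2 fold change 1.33, standard error 0.23, adjusted p = 0.00269). T cell genes called were 2 without WT replicate 1. NK cell genes called were 1 without WT replicate 1, 2 without WT replicate 3, Ager AHA/AHA replicate 6 or Ager-/- replicates 4 or 6, 3 without WT replicate 2 and 8 without Ager-/- replicate 1. Of 14 macrophage genes tested, 6 were called higher (42.9%), and 5 that were not called had a negative log2 fold change. The complement genes C1qa (2.43, adjusted p = 7.55e-06), C1qb (2.38, adjusted p = 5.07e-05) and C1qc (2.74, adjusted p = 1.78e-05) led, with C1qb at 9.06, 10.4 and 4.27 CPM in WT and 45.5, 32.2 and 45.7 CPM in Ager-/-, and Trem2 (1.77, adjusted p = 0.00181) and Apoe (1.40, adjusted p = 0.00142) were also called without each library in turn. The summed macrophage list was 401 to 581 CPM in WT and 584 to 725 CPM in Ager-/-, and 5 of its 19 genes were under 1 CPM in all 6 libraries. Its member Apoe alone was at 106, 69.1 and 59.8 CPM in WT and 184, 182 and 255 CPM in Ager-/-. That exceeds the gap between the sums, so the list without Apoe does not separate the groups. Against Ager AHA/AHA C1qb was not called (0.74, adjusted p = 0.344). Dendritic cell markers had 2 of 8 called, both higher (25%), with Zbtb46 at 1.23, 1.36 and 1.22 CPM in WT against 5.05, 4.04 and 2.47 CPM in Ager-/- (log2 fold change 1.61, standard error 0.32, adjusted p = 0.00723), and no monocyte or B cell marker was called of the 6 and 2 tested. Summed B cell markers were 12.9 to 13.5 CPM in WT and 10.6 to 11.5 CPM in Ager-/-. Of 4 eosinophil markers tested, Ear2, a ribonuclease, was called higher (2.04, adjusted p = 0.00172, 25% called), while the list median was -0.07 and the summed list was 20.5 to 24.3 CPM in WT against 20.2 to 25.7 CPM in Ager-/-, which overlap. Summed mast cell and basophil markers were lower, at 30.3 to 33.4 CPM in WT and 19.7 to 27.1 CPM in Ager-/-. Of these 9 markers 8 were under 1 CPM in all 6 libraries, and neither of the 2 tested was called. Those called higher with library totals were 11 of T cells, 8 of NK cells, 7 of macrophages, 4 of dendritic cells, 1 of monocytes, 1 of eosinophils and 1 of mast cells and basophils, and none was lower.

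Of genes of lysosomes and lipid handling, 6 of 25 were higher and 2 lower (32% called), with a median of 0.13. With library totals 12 were called higher and 0 lower, with a median of 0.53. Gpnmb, a lysosomal glycoprotein of lipid-laden phagocytes, was at 3.63, 4.08 and 5.27 CPM in WT and 21.6, 29.5 and 29.6 CPM in Ager-/- (log2 fold change 2.63, standard error 0.37, adjusted p = 0.00172). Apoe, which carries lipid out of cells, was at 106, 69.1 and 59.8 CPM in WT against 184, 182 and 255 CPM in Ager-/- (log2 fold change 1.40, standard error 0.23, adjusted p = 0.00142). Nr1h3, the sterol sensor LXR alpha (1.77, adjusted p = 0.0107, lost without WT replicate 1 at an adjusted p of 0.0617), and Ctsl, a cathepsin (1.03, adjusted p = 0.0127, lost without WT replicate 3 at an adjusted p of 0.0537), were also higher. Lipa, lysosomal acid lipase, was lower (-0.59, adjusted p = 0.0421, lost without WT replicates 1 or 3, Ager AHA/AHA replicates 4 or 6 or Ager-/- replicates 1, 4 or 6 at an adjusted p from 0.0517 to 0.223 and with library totals). Of 25 genes of cell division 10 were called, all higher (40%), with Top2a at 2.72, 3.77 and 3.99 CPM in WT against 11.8, 8.78 and 7.25 CPM in Ager-/- (log2 fold change 1.41, standard error 0.24, adjusted p = 0.00218) and Kif11, a mitotic motor, at 2.04 (adjusted p = 0.00503). With library totals 19 genes of cell division were called, all higher. Genes of cell division called were 2 without WT replicate 1 and 4 without WT replicate 3 or Ager-/- replicate 1. These rises stood beside the higher summed markers of T cells and NK cells given above, and the part of those cells or of macrophages in them was not tested. Apoe belongs to the macrophage list too, so its rise and that of the macrophage sum are not separate results.

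**Figure D5:**
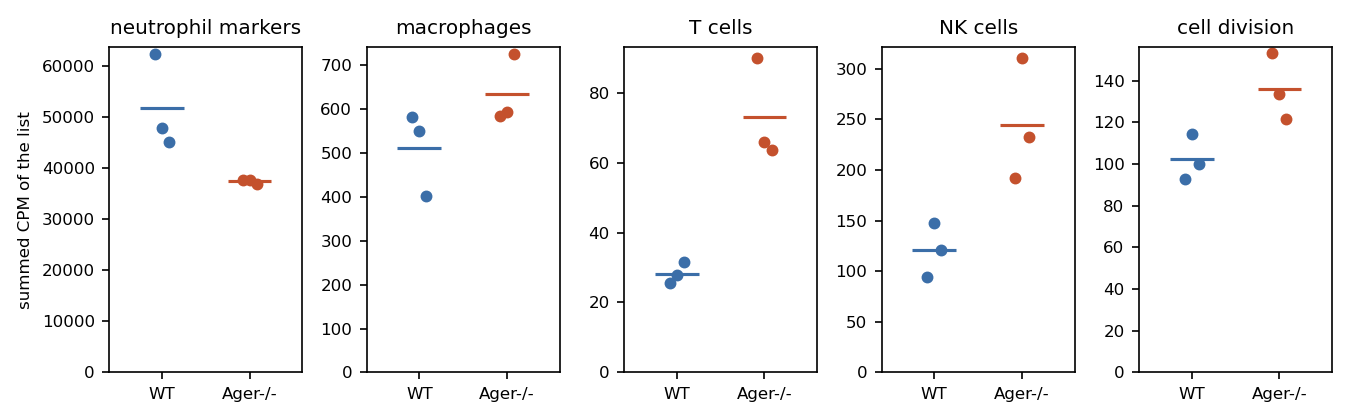
Summed CPM of 5 marker lists in each WT (blue) and Ager-/- (red) neutrophil library, with a bar at the group mean. The neutrophil sum is lower in all 3 Ager-/- libraries (36928 to 37698 CPM against 45025 to 62435). That gap depends on the TMM scaling, and with library totals the median log2 fold change of these markers was -0.04. The sums of T cells, NK cells, macrophages and cell division are higher without overlap, for macrophages by a narrow gap (584 against 581 CPM). Apoe, a member of the macrophage list, differed by more than that gap, so the macrophage sum without it does not separate the groups.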

How the data were processed

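RNA from air pouch neutrophils and lung was sequenced by the authors on NEBNext libraries. The submitters' processing notes name CASAVA, fastp, STAR and featureCounts and the build mm10, without versions, and the strand setting and treatment of reads matching several genes are not stated there. The authors deposited raw counts per gene, which were used as they stand. The deposited FPKM and the tables of fold changes and p-values were not used. Neutrophil depth was 17109497 to 23522678 counts per library over the 9 libraries, so intervals and floors on single genes cover counting error only.

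The 9 neutrophil libraries of 3 genotypes were fitted together in edgeR 4.0.16 (limma 3.58.1, R 4.3.3, data.table in version 1.17.8) with its default filter, TMM scaling and the robust quasi-likelihood test, and Ager-/- was contrasted with WT and with Ager AHA/AHA; the 11 lung libraries were fitted the same way. P-values were adjusted by Benjamini-Hochberg over all genes tested. The script was tested on simulated data. Sequences were aligned with Biopython 1.88 and figures drawn with matplotlib in Python. Genes were named by rule: in each direction the 10 largest changes among DEGs with no overlap of libraries, a mean of at least 1 CPM and a call without each library in turn; up to 4 called members per list; and genes the study names. Others, including members of lists given as not called or for context, were chosen after their values were seen. A called member of the lysosome list is counted but not reported here by name. The members and the 35 lists, 13 of them cell type markers, were chosen with earlier results of these data known. Alternatives were no filter, 1 CPM in 3 libraries, RLE scaling, library totals, DESeq2 1.42.0, only WT and Ager-/- libraries, a fit that is not robust, thinned counts, no markers of other cell types, each library left out and, chosen after seeing the data, parents and copies summed.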

Additional observations from a re-analysis of the deposited data

Results flagged for a closer look

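Some genes called in neutrophils went the opposite way in lung, with every Ager-/- lung library beyond every WT one on the other side. The difference between the tissues was not tested, and no share of all genes without overlap in lung is given as a background. Changes that did not pass the threshold in lung included Trim46 (adjusted p = 0.159), Apoe (0.0524), Ctsl (0.217), Mcm6 (0.249), Cd4 (0.183), Bcl2 (0.122) and Csf2rb2 (0.178). Genes higher in Ager-/- neutrophils had lung log2 fold changes (Ager-/- minus WT) below 0 for Apoe (-0.67), Ctsl (-0.26), Mcm6 (-0.30), Lck (-0.76), Cd4 (-0.63), Bcl2 (-0.44), Ccl5 (-1.03), Ccr7 (-0.63), Zbtb46 (-0.41), Il2rb (-1.02), Klrd1 (-1.03), Ifi214 (-1.15), Nr1d2 (-0.30) and Rps15a (-0.59). Genes lower in Ager-/- neutrophils had lung values above 0 for Trim46 (0.63), S100a11 (0.45), Csf2rb2 (0.51), Thbs1 (0.72) and Hdc (0.76).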

How the results depend on the processing

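No paired analysis was possible because the WT and Ager-/- neutrophil libraries share only replicate number 1. With library totals the DEGs were 1599 higher and 37 lower and the genes called 2112 higher and 74 lower, and with DESeq2 867 genes were called lower. Leaving out 1 library gave 119 to 606 DEGs higher, 39 to 138 lower, 122 to 850 genes called higher and 58 to 535 called lower; the lowest of each came without WT replicate 1, and those called lower were 106 without Ager-/- replicate 4 and 138 without Ager-/- replicate 6. Directions reversed only for genes that were not called. With library totals the log2 fold changes were 0.17 for Gbp2b, 0.13 for Ptprc, 0.0598 for S100a9 and 0.21 for Hmgb2. Leaving out 1 library gave -0.19 to 0.38 for Ly6c1, -0.12 to 0.33 for S100a13 and -0.35 to 0.0145 for Hmgb2. Calls of named genes lost under an alternative numbered 290 and gained 20, over the neutrophil, Ager AHA/AHA and lung comparisons together.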
